A study of Homo sapiens with 3 samples.

Results

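The nectins (PVRL1 to PVRL4, now NECTIN1 to NECTIN4) and the poliovirus receptor (PVR, also CD155) were taken from the arrays of HepG2 cells treated with etoposide as every probe that carries one of these 5 names. They are 5 of the 27274 gene names on the array and were measured by 8 of its 34127 probes. The family was selected on the measured values of PVRL4, which had the highest ratio of 10 μM etoposide to control among the genes measured on all arrays, so these values are given as a description and nothing is supported with them. HepG2 is an established line of human hepatocellular carcinoma cells with wild-type p53, and etoposide is a drug that traps topoisomerase on DNA and leaves double-strand breaks. All cells were grown in RPMI medium with serum. There was 1 array for untreated cells (0 μM, the control, named DMSO in the text of the study), 1 for cells given 10 μM etoposide (the low dose) and 1 for cells given 100 μM (the high dose), each at 30 h. The study set the doses against each other to separate genes particular to senescence from those that answer DNA damage in general.

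Nectins are cell surface proteins with immunoglobulin-like domains that bind one another across neighbouring cells and are tied to actin by afadin at adherens junctions, where they act beside the cadherins. PVR belongs to the nectin-like molecules, which do not bind afadin. PVR and nectin-2 are also ligands of receptors on natural killer and T cells, of which CD226 activates and TIGIT inhibits, while nectin-4 is found mainly in placenta, embryonic epithelia and carcinomas and is the target of an antibody-drug conjugate.

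Each member was read through 60-base probes, and those that lie in coding sequence are shown because they mark the stretch of each gene that was measured. The PVRL1 probe starts at base 928 of transcript NM_203286 and matches chr11:119053057-119053116 on the minus strand of hg18. The first PVR probe starts at base 1378 of NM_006505 and matches chr19:49853938-49853997 on the plus strand. PVRL2 was probed at chr19:50069466-50069525 (base 1322 of NM_002856) and PVRL3 at chr3:112335430-112335489 (base 1327 of NM_015480), both on the plus strand. For PVRL4 (NM_030916) the probe at chr1:159308120-159308179, minus strand, starts at base 2727 of the transcript, downstream of the coding sequence, and its first 30 bases are given.
PVRL1: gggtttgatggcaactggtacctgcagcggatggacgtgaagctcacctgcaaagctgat
PVRL2: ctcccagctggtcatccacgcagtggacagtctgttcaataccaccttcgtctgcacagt
PVRL3: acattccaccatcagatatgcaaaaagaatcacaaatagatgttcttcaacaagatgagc
PVR: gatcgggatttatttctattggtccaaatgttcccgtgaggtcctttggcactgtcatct
PVRL4, first 30 bases: cctagtagctgggactttaagtgtacacca
The other probe of PVRL2 (base 2691 of NM_001042724, chr19:50084161-50084220) and the other probes of PVR (chr19:49857918-49857977 and chr19:49860203-49860262) also lie downstream of the coding sequence. Over the 24 pairs of probes of different members, the longest run of bases in common was 6. Beyond the family, 6 probes of other genes on the array shared a run of at least 12 bases with the PVRL4 probe, the longest being 15. Of these, 4 were well above background on all arrays, with log2 ratios between −0.10 and 0.10 for 10 μM over control.

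Signals are given as the scanner software wrote them after background subtraction, and ratios were computed after each array was set relative to its 75th percentile, a signal of 514 for control, 536 for 10 μM and 432 for 100 μM. Of the 5 members, 5 were well above background on all arrays at their brightest probe, by which a gene is represented here. Every member probe was spotted once. The spot SD of a signal is therefore the median SD between spots over the 50 repeatedly spotted probes nearest in signal on the same array. The error of a ratio combines the spot SDs of both its arrays, as the root of their summed squares. It covers the spread within arrays and not the difference between arrays or cultures, and with 1 array per condition no test was possible. In such RNA from whole cultures, a change in the cells that express a gene and a change in RNA per cell cannot be told apart. The markers of liver cells were well above background on all arrays in 7 of 7 cases, and 2 of 3 endothelial markers were as well, PECAM1 at 473, 298 and 286 and CDH5 at 47.9, 52.9 and 41.6 for 0, 10 and 100 μM, whereas 0 of 4 fibroblast markers were so on any array.

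PVRL4 was much brighter in both treated cultures than in control cells, and brighter at 10 μM than at 100 μM. Its signal was 80.8 in control cells, 2708 at 10 μM and 983 at 100 μM. The log2 ratio of scaled signals was 5.00 ± 0.11 (spot SD) for 10 μM over control, a 32.1-fold difference, and 3.85 ± 0.11 for 100 μM over control, a 14.5-fold difference. Both were the highest of the 15178 genes well above background on all arrays. Between the doses the log2 ratio was 1.15 ± 0.06 in favour of 10 μM, or 2.22-fold, which placed PVRL4 at rank 388. In the order of levels, control, 100 μM and 10 μM, each neighbouring pair differed by at least 18.5 spot SDs. With normexp background correction, which adds 50 to each signal, the ratios over control were 17.8-fold and 8.11-fold. In the qPCR of the study, PVRL4 was also higher at 10 μM than at 100 μM, but by a smaller factor than on these arrays.

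PVRL1 had its highest signal at the low dose too, but far smaller differences. Nectin-1 is an adhesion molecule and an entry receptor of herpes simplex virus. Its signal was 28.9 in control cells, 79.0 at 10 μM and 34.1 at 100 μM. The log2 ratio for 10 μM over control was 1.39 ± 0.25, a 2.62-fold difference, at rank 163 of the 15178 genes. For 100 μM over control it was 0.49 ± 0.32, so these neighbours in the order lay 1.54 spot SDs apart, where 10 μM and control lay 5.48 apart. With quantile normalization the ratio of 100 μM over control was 0.12. The low dose exceeded the high dose by 0.90 ± 0.23. The control signal lay near the background, since probes were called well above it there from 19.5 upward, and with normexp correction the ratio at 10 μM was 0.56 and no longer past 2-fold.

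PVRL2 was measured by 2 probes, assigned by the array design to different transcripts, and both were within 2-fold in every comparison. Nectin-2 pairs with itself and with nectin-3 at junctions and is bound by CD226, TIGIT and PVRIG. The brighter probe, at base 2691, had signals of 15207, 16760 and 13283 at 0, 10 and 100 μM, with log2 ratios of 0.08 ± 0.06 and 0.05 ± 0.07 over control. The latter was −0.20 without scaling, so its direction depended on the scaling. The probe in coding sequence had signals of 574, 571 and 633, and its log2 ratio was −0.07 ± 0.07 at 10 μM and 0.39 ± 0.07 at 100 μM. At 100 μM these probes thus differed by more than their spot SDs.

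PVRL3 was dim on every array and was highest at 100 μM. Nectin-3 binds nectin-1, nectin-2 and PVR from the opposite cell. Its signal was 28.0 in control cells, 25.1 at 10 μM and 39.5 at 100 μM. The log2 ratio was −0.22 ± 0.37 for 10 μM over control, less than 1 spot SD, and 0.75 ± 0.30 for 100 μM over control, or 2.51 spot SDs. For 10 μM over 100 μM it was −0.96 ± 0.34, at rank 14744 of the 15178 genes. It was past 2-fold under 1 of 12 alternatives, at −1.04 when every spot counted in the percentile. Without scaling it was −0.65, and with normexp correction −0.56.

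PVR was measured by 3 probes, and its direction depended on the probe and, at 100 μM, on the scaling. The brightest, at base 2552, had signals of 461, 407 and 294 at 0, 10 and 100 μM and log2 ratios of −0.24 ± 0.07 and −0.40 ± 0.08 over control. The probe in coding sequence had signals of 93.1, 107 and 89.6, and its ratios over control were 0.13 ± 0.12 and 0.19 ± 0.14. The probe at base 4837 gave 27.2, 20.7 and 26.1, the value at 10 μM not being well above background. Its log2 ratio at 100 μM was 0.19 ± 0.34. The positive ratios at 100 μM lay 1.42 and 0.56 spot SDs from 0, and without scaling all 3 probes were below 0, at −0.65, −0.05 and −0.06. No PVR probe was past 2-fold in any comparison.

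**Figure D1:**
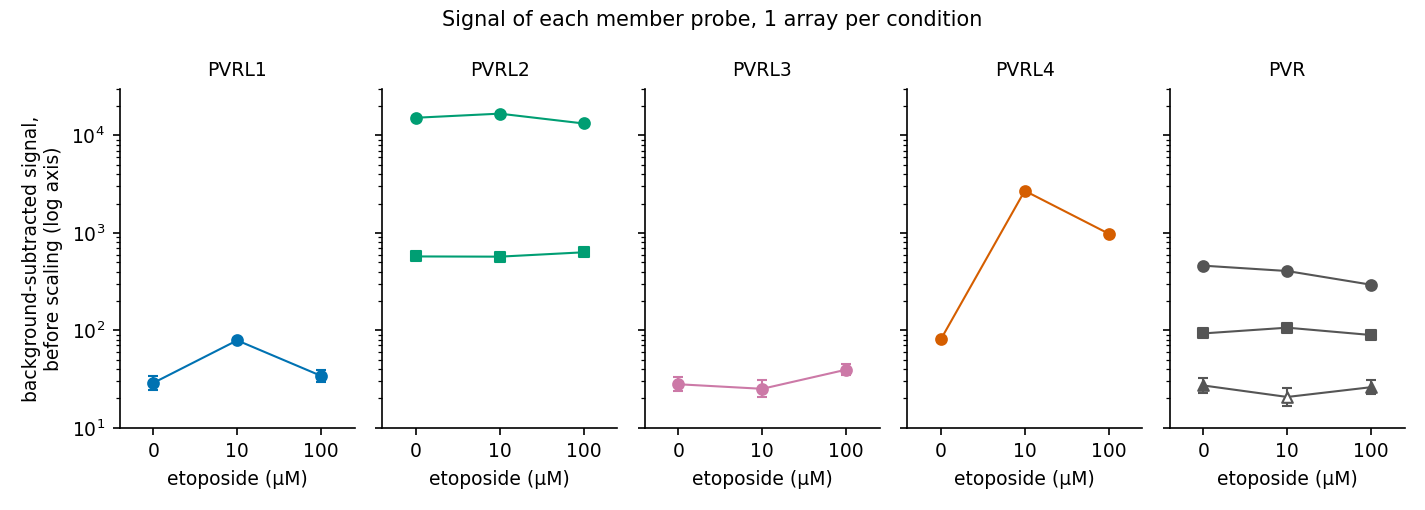
Background-subtracted signal before scaling (log axis) of the 8 member probes at 0, 10 and 100 μM etoposide, 1 array each. Symbols are probes, bars the median SD between spots of repeated probes of similar signal, and the open symbol a value not well above background. PVRL4 went from 80.8 to 2708 and 983, whereas the PVRL2 and PVR probes stayed within 2-fold.

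**Figure D2:**
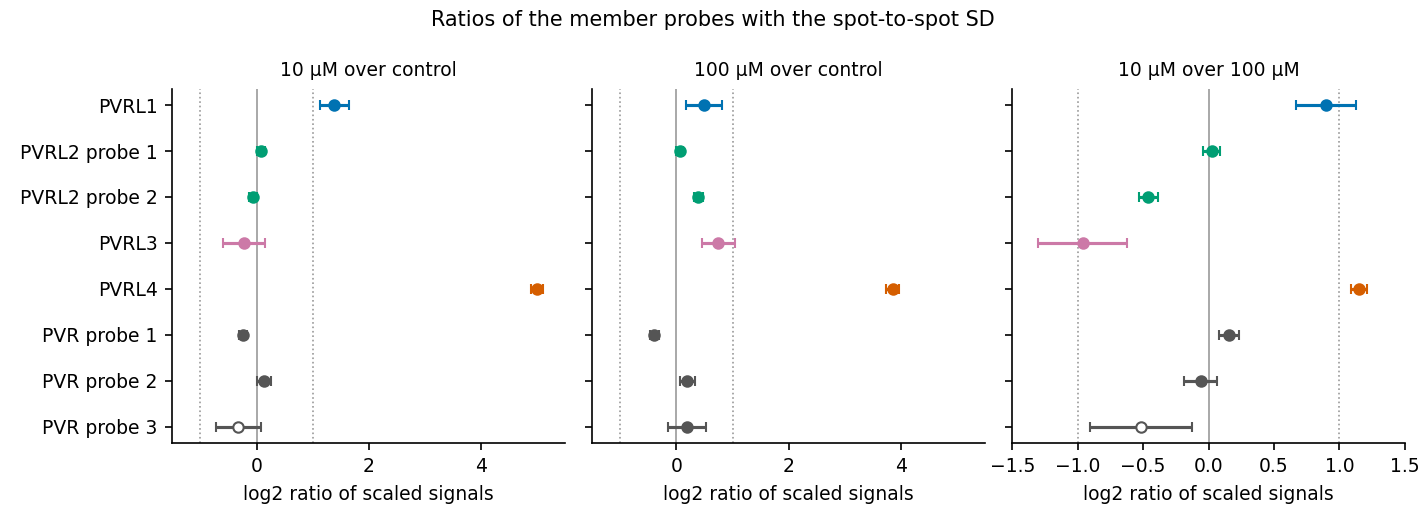
Log2 ratio of scaled signals for each member probe in the 3 comparisons, with the spot SD as bars and dotted lines at 2-fold in either direction; open symbols are bounds. PVRL4 and PVRL1 lay past 2-fold for 10 μM over control, and PVRL4 alone among the members in the other comparisons.

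In the comparison of 10 μM with control, 2 of the 5 members were more than 2-fold higher, namely PVRL4 and PVRL1, where 3.38% of the 16663 genes measurable in that comparison were. Of the members, 0 were more than 2-fold lower, where 1.61% of the measurable genes were. At 100 μM, 1 member, PVRL4, was more than 2-fold higher than control (background 6.84%) and 0 were lower (3.71%). For 10 μM over 100 μM, PVRL4 was again the 1 member more than 2-fold higher (3.66%) and 0 were lower (3.97%). Since PVRL4 chose the group, its part in these counts says nothing about the family. The comparisons over control share the control array, so the values of each member are set side by side here and were not correlated. PVRL2, PVRL3 and PVR were within 2-fold in every comparison at their brightest probes.

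**Figure D3:**
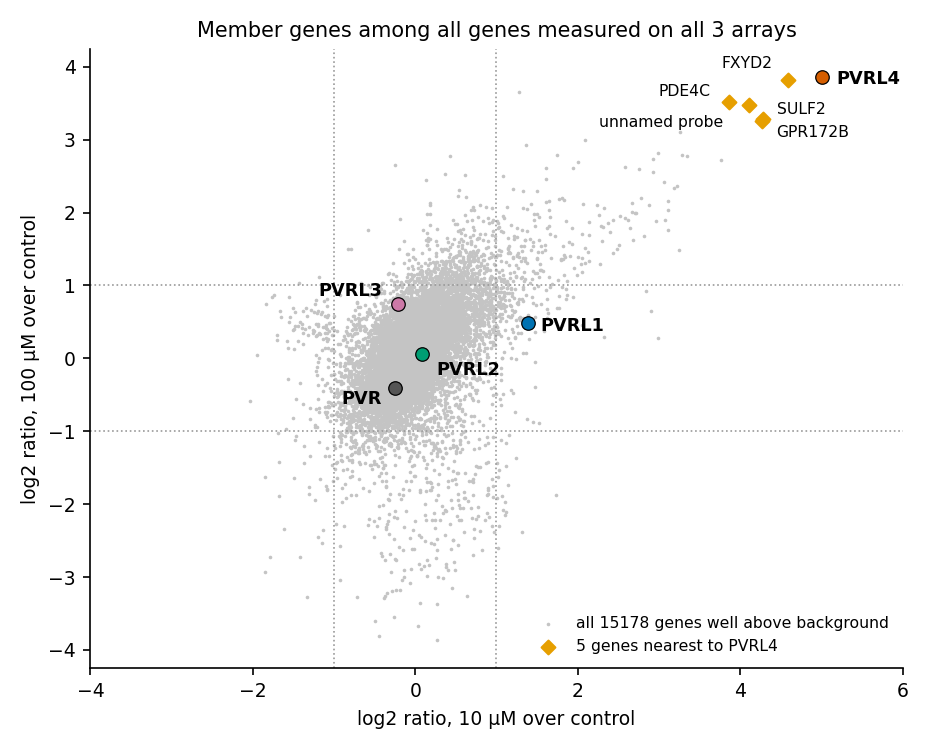
Log2 ratio of 10 μM over control (x) against 100 μM over control (y) for the 15178 genes well above background on all arrays (gray), the 5 members (large circles) and the 5 genes nearest to PVRL4 (diamonds). Dotted lines mark 2-fold. PVRL4 lay at 5.00 and 3.85, and PVRL1 at 1.39 and 0.49.

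The genes closest to PVRL4 in their pair of ratios over control, by Euclidean distance on the log2 scale over these 3 arrays, were FXYD2, SULF2, GPR172B, a probe without a gene name and PDE4C. FXYD2, a regulatory subunit of the sodium pump, was nearest at a distance of 0.42. Its log2 ratios were 4.59 ± 0.24 and 3.81 ± 0.25. The distance of SULF2, an enzyme that trims sulfate from heparan sulfate, was 0.92, and that of GPR172B, a riboflavin transporter now named SLC52A1, was 0.95. The unnamed probe followed at 0.97 and PDE4C, a phosphodiesterase of cyclic AMP, at 1.19. For reference, the p53 targets CDKN1A and MDM2 had log2 ratios of 2.99 and 2.81 at 10 μM, and of 2.82 and 1.67 at 100 μM, at their brightest probes. The other MDM2 probes had smaller ratios, of 1.84 and 2.29 at 10 μM and of 1.14 and 1.47 at 100 μM.

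The probes within 100 kb of the PVRL4 probe by the positions on hg18 named 12 other genes, of which 10 were well above background on all arrays. Of these 10, 0 were past 2-fold over control at either dose. Over all measurable genes, 3.38% were higher and 1.61% lower at 10 μM, and 6.84% and 3.71% at 100 μM. A count of 0 of 10 lies near these shares. The log2 ratios of these 10 neighbours lay between −0.34 and 0.62 at 10 μM and between −0.60 and 0.51 at 100 μM. The highest at 10 μM was that of KLHDC9, at 0.62 ± 0.07. F11R, the tight junction protein JAM-A, had 0.48 ± 0.06 at 10 μM and 0.48 ± 0.06 at 100 μM, and its second probe gave 0.55 and 0.54. PFDN2, a subunit of prefoldin, had −0.16 ± 0.06 and −0.57 ± 0.06. The remaining neighbours were ARHGAP30, NIT1, DEDD, UFC1, USP21, PPOX and B4GALT3, with USF1 and TSTD1 not above background on all arrays.

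Promoter sequence was matched for 4 of the 5 members in RefSeq (GRCh38.p14), as the 250 bases before the start of the gene. Those of PVRL4 (chr1:161089559-161089808, minus strand) and PVR (chr19:44643660-44643909, plus strand) are shown as the one with the fewest CpG and one of the pair with the most, and capitals mark each CpG.
PVRL4 promoter: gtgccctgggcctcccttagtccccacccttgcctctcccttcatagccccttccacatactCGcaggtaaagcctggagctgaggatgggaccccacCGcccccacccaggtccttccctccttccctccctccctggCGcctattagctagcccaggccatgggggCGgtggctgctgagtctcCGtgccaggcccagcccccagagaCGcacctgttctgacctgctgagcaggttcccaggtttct
PVR promoter: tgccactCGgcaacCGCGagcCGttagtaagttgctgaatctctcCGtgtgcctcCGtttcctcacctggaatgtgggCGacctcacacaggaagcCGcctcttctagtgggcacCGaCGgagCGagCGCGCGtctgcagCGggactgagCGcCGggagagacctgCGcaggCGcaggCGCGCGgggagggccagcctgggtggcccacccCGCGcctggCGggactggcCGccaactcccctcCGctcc
The PVRL4 sequence held 6 CpG, and 38.7% of the 27305 promoters compared held fewer. PVRL2 held 19, PVRL3 27 and PVR 27, against a median of 11 over all promoters. GC content was 65.2% for PVRL4 and 70.0% for PVR. The half-site of the p53 consensus, which reads alike on both strands, was found 0 times in each of these 4 sequences and at least once in 5.53% of all promoters. That says only that these letters are not in this window. The study searched with the JASPAR database and reported a putative p53 response element in the promoter of PVRL4. Its chromatin immunoprecipitation tested the regions of its selected genes, PVRL4 among them, and reported p53 bound at PRODH and DAO. The study proposes that the upregulation of PVRL4 depends on p53. Its evidence was p53 knockdown in HepG2 cells and qPCR in osteosarcoma lines with and without p53.

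Genes that work with the nectins were taken from 8 lists with 60 names, 58 of them on the array and 44 well above background on all arrays. They cover the molecules that nectins bind, the junctions they build and the ligands that killer cells read beside them. For 10 μM over control, 0 of 46 measurable genes were more than 2-fold higher and 1 was lower, beside 3.38% and 1.61% of all measurable genes on the array. For 100 μM over control, 3 of 45 were higher and 0 were lower, beside 6.84% and 3.71%, so the share of higher genes was near the background. With quantile normalization 1 was higher and 1 lower. The median log2 ratio over the lists was −0.03 at 10 μM and 0.08 at 100 μM, beside −0.03 and 0.08 over all 15178 genes. Without scaling, the latter median over all genes was −0.17.

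Afadin (MLLT4), which ties nectins to actin, had signals of 2837, 1880 and 2564 at its brightest probe, with log2 ratios of −0.65 ± 0.06 at 10 μM and 0.10 ± 0.06 at 100 μM. The latter was −0.15 without scaling. Its other 4 probes had log2 ratios from −0.37 to 0.26 at 10 μM and from 0.23 to 0.79 at 100 μM. The other 7 partners of the nectin complex were well above background on all arrays and none was past 2-fold over control. PARD3, a polarity protein bound by nectins, had −0.76 ± 0.06 and −0.68 ± 0.06.

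E-cadherin (CDH1) had signals of 213, 266 and 391, and its log2 ratio was 0.26 ± 0.09 at 10 μM and 1.12 ± 0.09 at 100 μM. N-cadherin (CDH2) had 3281, 1813 and 1991, with ratios of −0.92 ± 0.06 and −0.47 ± 0.07. The cadherins thus differed in sign at both doses. Among tight junction genes, CLDN2, a claudin of leaky epithelia, had signals of 246, 113 and 208. Its log2 ratio was −1.19 ± 0.10 at 10 μM and 0.01 ± 0.10 at 100 μM. CLDN6, an oncofetal claudin, had 64.0, 128 and 114, with ratios of 0.93 ± 0.14 and 1.09 ± 0.15. At 100 μM, CDH1 and CLDN6 were below 2-fold without scaling, at 0.87 and 0.84. The 7 desmosome genes were all within 2-fold over control.

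Among the nectin-like molecules, CADM1 had log2 ratios of −0.46 ± 0.06 and −0.35 ± 0.06 and CADM4 had 0.45 ± 0.17 and 0.82 ± 0.17, while CADM2 and CADM3 were not well above background on any array. The sheddases ADAM10 and ADAM17, of which the latter is known to release the outer part of nectin-4, had ratios between −0.06 and 0.17 over control. The receptors TIGIT, CD226, CD96 and CRTAM, which lymphocytes carry, were not well above background on any array. PVRIG, an inhibitory receptor of nectin-2, had signals of 29.1, 41.2 and 55.8 and a log2 ratio of 1.19 ± 0.27 at 100 μM, which was 0.94 without scaling. MICA and MICB, stress-induced ligands of the receptor NKG2D, had log2 ratios of 0.61 ± 0.06 and 0.64 ± 0.06 at 10 μM. At 100 μM these were 0.71 ± 0.07 and 0.28 ± 0.06, and the other MICB probe gave 0.68. ULBP1 was above background in control cells alone, at 41.9 for its brighter probe. Its other probe was not well above background on any array.

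Of 6 leukocyte markers, 5 were on the array and all 5 were well above background on all arrays, none of them at 0. Their summed signal was 1042 in control cells, 3270 at 10 μM and 3578 at 100 μM. CD3D, a chain of the T cell receptor complex, had 187, 1880 and 1358, and CD14, a monocyte receptor, had 521, 1184 and 1847. These markers carried the higher sums. CD3E, of the same complex as CD3D, had 46.8, 34.6 and 52.9, and NKG7, a granule protein of killer cells, had 29.5, 40.5 and 32.8. PTPRC, which defines leukocytes, had 257, 131 and 288, with 1 of its 5 probes above background. The part of such signal in the values of PVRL4 and PVRIG was not tested.

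**Figure D4:**
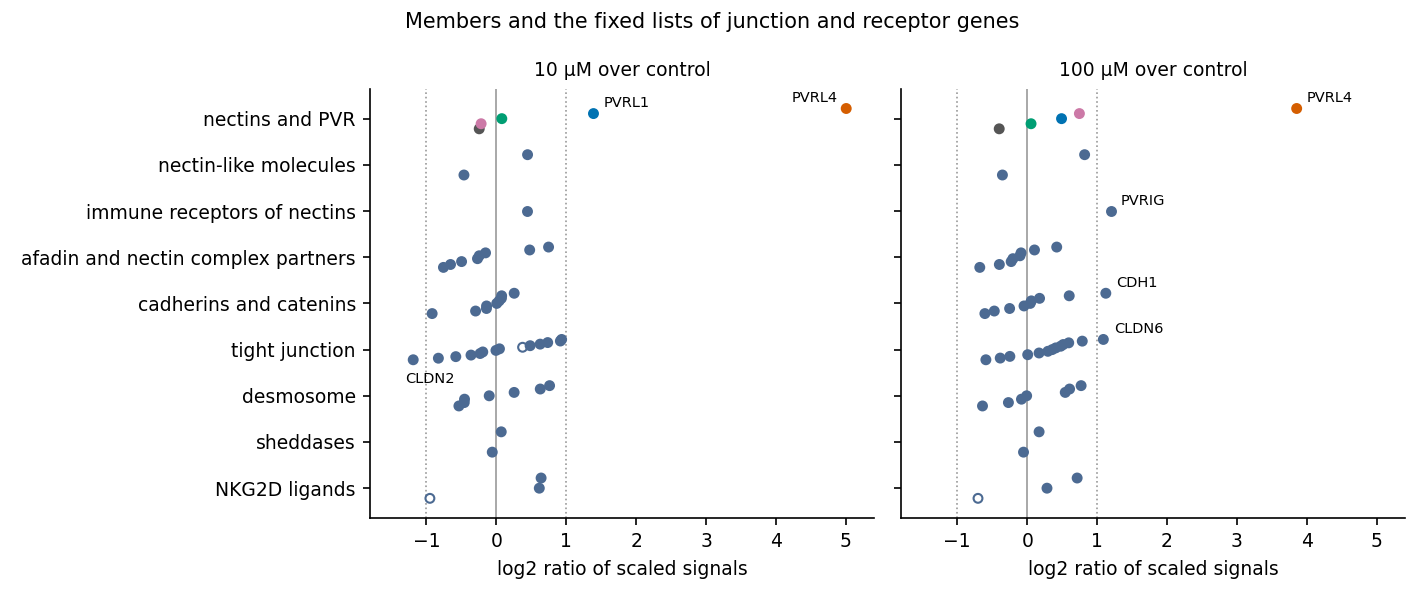
Log2 ratio of scaled signals over control at 10 μM (left) and 100 μM (right) for the 5 members and for the measurable genes of the 8 lists, each at its brightest probe; open symbols are bounds and dotted lines mark 2-fold. Genes past 2-fold are named: CLDN2 at −1.19 for 10 μM, and CDH1, CLDN6 and PVRIG at 1.12, 1.09 and 1.19 for 100 μM.

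**Figure D5:**
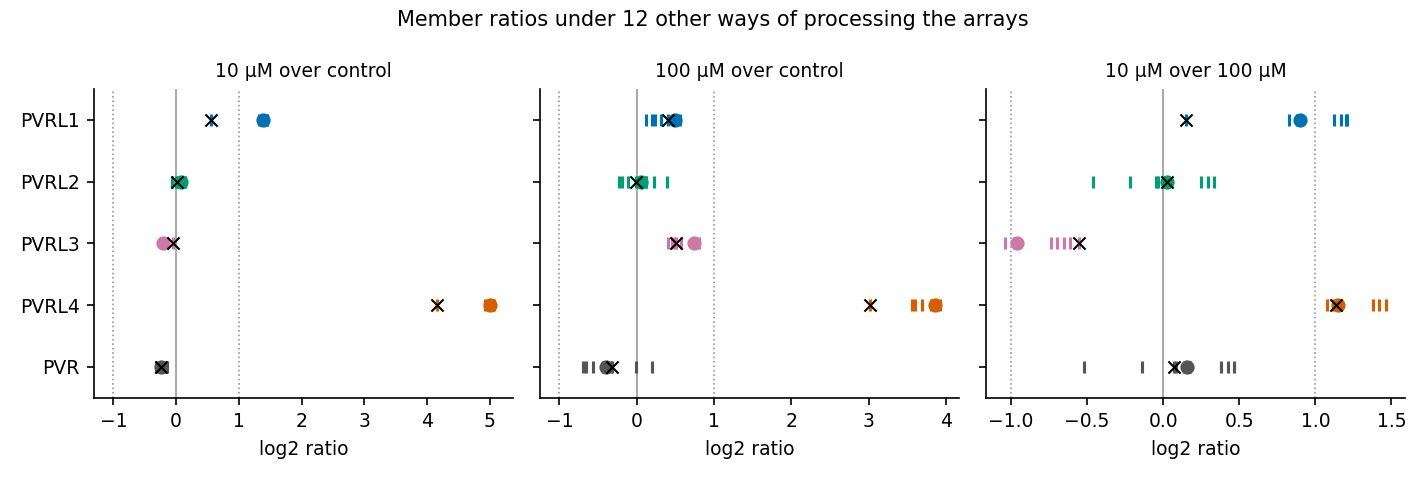
Log2 ratio of each member under the reported processing (circles) and 12 alternatives (ticks; normexp as crosses) in the 3 comparisons, with dotted lines at 2-fold. PVRL4 stayed between 4.15 and 5.07 for 10 μM over control, whereas PVRL1 was 0.56 with normexp correction.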

How the data were processed

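RNA from HepG2 cells was labeled with Cy3 and hybridized to Agilent 1-color arrays, 1 per condition. The authors deposited the intensity of every spot from Feature Extraction (version 10.7.3.1, per the submitters' processing notes), background-subtracted and detrended within each array but not scaled between arrays. The deposited series table equaled it for all 44495 spots.

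Outlier spots were left out, log2 values averaged per probe, and each array's 75th percentile over probes subtracted. A signal not well above background was raised to the lowest one that was (19.5, 22.7 and 21.6 before scaling), which makes the ratio a bound. Calls needed a 2-fold difference.

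The members and lists were chosen with earlier results of these data known. Named were the members with all probes, list genes past 2-fold, afadin, E-cadherin and the receptors, the 5 genes nearest to PVRL4 and its neighbours within 100 kb. CDH2, PARD3, MICA, MICB, ULBP1, CADM1 to CADM4, ADAM10, ADAM17 and the marker genes were named after their values were seen. Of the listed genes and markers, 3 were not found under their names on the array.

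Alternatives were other scalings, quantile normalization, normexp with an offset of 50, other rules for probes, outliers and dim signals, the series table and other thresholds. Steps were tested on simulated arrays. Python 3.11.15, pandas 2.3.3, numpy 2.4.6, R 4.3.3 and limma 3.58.1 were used.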

Additional observations from a re-analysis of the deposited data

How the results depend on the processing

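No paired analysis was possible because every dose was hybridized to 1 array. The log2 ratios of PVRL4 were past 2-fold under all 12 alternatives in all 3 comparisons. Some of these alternatives could not alter them. PVRL4 has 1 probe, well above background on all arrays, so the other rules for probes and for dim signals gave identical ratios. The series table held the same signals. With normexp the ratios of PVRL4 were 4.15 at 10 μM and 3.02 at 100 μM over control. Without scaling, with median scaling and with spike-in controls, the ratio at 100 μM was 3.60, 3.57 and 3.68, and that of 10 over 100 μM was 1.46, 1.42 and 1.38. With the percentile over all spots the latter was 1.08. Of 144 values of the other members, 37 moved by more than the spot SD. Only PVRL1 for 10 μM over control was past 2-fold as reported, and it kept its sign under all 12 alternatives. Some smaller ratios changed sign. PVRL2 kept its sign under 11, 8 and 8 of 12 alternatives for 10 μM over control, 100 μM over control and 10 over 100 μM. PVR kept its sign under 12, 11 and 10. PVRL1 lost its 2-fold difference at 10 μM under normexp alone, and its ratio of 10 over 100 μM was past 2-fold under 4 of 12 alternatives. Among list genes more than 2-fold lower at 10 μM, the count of 1 became 0 with normexp or a 3-fold threshold and 6 at 1.5-fold, while that of higher genes became 9 at 1.5-fold. At 100 μM, the count of 3 higher genes became 0 without scaling, with median scaling, with normexp or at 3-fold, 1 with spike-in controls or quantile normalization, and 10 at 1.5-fold. The count of lower genes became 1 with quantile normalization and 5 at 1.5-fold. For 10 over 100 μM, 1 of 45 measurable list genes was lower and 0 were higher, beside 3.97% and 3.66% of all measurable genes. The count of lower genes became 0 without scaling, with median scaling, spike-in controls, normexp or at 3-fold, and 6 at 1.5-fold. Shares of all genes were computed only at 2-fold under the reported processing. The list counts under other settings therefore have no background beside them. Leaving out the scaling shifted every log2 ratio of 100 μM over control by −0.25, the difference between the percentiles of these arrays. Fewer or more genes pass another threshold, and normexp adds 50 to dim signals. Beyond these points, the cause of the changes between settings was not tested. The number of arrays limits precision, and PVRL1, PVRL3 and the third PVR probe lay near the background.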

Other observations

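The genes nearest to PVRL1 in their pair of log2 ratios over control, named after their values were seen, were TMEM27 at a distance of 0.05, PARD6G at 0.09, MICALL1 at 0.10, DRAM1 at 0.11 and TBX1 at 0.11. DRAM1, a p53 target that acts in autophagy, had signals of 915, 2648 and 1136 in control cells and at 10 and 100 μM, with log2 ratios of 1.47 ± 0.06 and 0.56 ± 0.07. PARD6G, a paralog of the listed polarity proteins PARD6A and PARD6B, had signals of 204, 533 and 253, with log2 ratios of 1.33 ± 0.08 and 0.56 ± 0.09. PARD6A and PARD6B had log2 ratios of 0.75 ± 0.24 and 0.48 ± 0.07 at 10 μM.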
